A study of Mus musculus with 21 samples.

Results

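The melanocyte pigment genes described here are 10 genes taken from the gene table of 32285 by name: Mitf, Tyr, Tyrp1, Dct, Pmel, Mlana, Slc45a2, Oca2, Gpnmb and Trpm1. They were measured as UMIs, which are counts of tagged RNA molecules, in single mouse cells sequenced with a droplet method that reads RNA from its 3′ end. Melanoma fragments of the MT-ret model were transplanted under the skin of young adult mT/mG reporter mice of both sexes (the ACTB-tdTomato,-EGFP allele at the Rosa26 locus), in which every host cell carries red tdTomato and no Cre recombinase is present, so that the engrafted melanoma cells are the unlabeled ones. Primary tumors were resected and lung metastases followed, giving tdTomato-negative melanoma libraries (MM) and tdTomato-positive libraries of the tumor microenvironment (TME) from both sites, and lungs of unchallenged mice were the control. TME cells were sorted with or without removal of CD45-positive cells, and which gate was used is not given for each library.

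Pigment is made inside melanosomes, organelles related to lysosomes. MITF is the transcription factor that drives most pigment genes. Tyrosinase (Tyr) starts melanin synthesis, Dct and Tyrp1 act on later intermediates, Pmel builds the fibrils on which melanin is laid down, and Mlana is needed for Pmel to mature. Slc45a2 and Oca2 set the pH in which tyrosinase works, Trpm1 is a cation channel that fades in aggressive melanoma, and Gpnmb is a glycoprotein of melanosomes and lysosomes that macrophages also make.

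The 16 libraries held 100359 barcodes, after 5 of 24 library names proved identical to another one and names under 1 sample title were joined. One set of 1036 barcodes was named both as metastasis TME and as metastasis MM, and was counted as metastasis TME replicate 6. The 5166 barcodes of metastasis TME replicate 5 were also deposited as replicate 7, under another mouse. TME replicate 6 of metastasis and TME replicates 5 and 6 of primary tumor were also deposited again under other mice. The lower replicate number was kept, so the mouse behind these TME libraries is not certain. The sorted melanoma libraries were replicates 4 and 5 of each site by their sample titles. Of these 4 libraries, 3 carry another number in the deposited cell names, and they were matched to the titles through the mouse named there. Unchallenged lung replicate 1 also carries another number there and was matched as the only name left in its group. Replicate 4 of metastasis and of primary tumor came from 2 mice with the same entry in the run column of the deposited metadata, whereas both replicate 5 libraries came from 1 mouse. Each replicate 1-3 library joins the separately deposited names of several mice, so these mice are not separate units in the tests. Cells were clustered without the member genes, and clusters were named melanoma from a marker list that included Cited1, Cst6, Syt4, Nav3, Sox10 and Cd63. This gave 274 melanoma cells in metastasis MM replicate 4, 11183 in metastasis MM replicate 5, 30317 in primary tumor MM replicate 4 and 6099 in primary tumor MM replicate 5. The primary tumor MM replicate 4 library had the lowest depth of the 4, with a median of 1654 UMIs per barcode against 3683 to 4002 in the others. Levels are given as CPM, the usual scaling of a gene's UMIs to all UMIs of the same cells, and since 1 UMI is counted per RNA molecule from its 3′ end they were not divided by gene length.

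The promoter windows of some members hold a known pigment gene motif. The M-box TCATGTG, an extended E-box that MITF is known to bind, was searched on both strands from 250 bases before to 50 bases after each start site in RefSeq (GRCm38.p6), and 3.77% of 32851 such windows held it. Windows were at hand for 7 members, and 4 of these held an M-box, in capitals in the lines that follow. Tyr is on the minus strand at chr7:87493463-87493762, Tyrp1 on the plus strand at chr4:80833963-80834262, Dct on the minus strand at chr14:118052197-118052496, and the upstream of 2 Trpm1 windows on the plus strand at chr7:64153585-64153884.
Tyr: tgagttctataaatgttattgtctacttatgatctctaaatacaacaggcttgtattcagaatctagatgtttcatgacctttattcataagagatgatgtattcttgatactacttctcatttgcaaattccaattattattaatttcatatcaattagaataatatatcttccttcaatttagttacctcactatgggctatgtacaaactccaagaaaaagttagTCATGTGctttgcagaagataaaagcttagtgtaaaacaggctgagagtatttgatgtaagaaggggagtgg
Tyrp1: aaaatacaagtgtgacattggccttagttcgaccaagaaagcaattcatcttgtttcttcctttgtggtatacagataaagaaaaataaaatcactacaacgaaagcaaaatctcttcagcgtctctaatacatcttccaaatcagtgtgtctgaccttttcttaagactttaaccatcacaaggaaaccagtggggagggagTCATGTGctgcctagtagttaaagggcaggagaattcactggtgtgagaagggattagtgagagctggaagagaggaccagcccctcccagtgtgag
Dct: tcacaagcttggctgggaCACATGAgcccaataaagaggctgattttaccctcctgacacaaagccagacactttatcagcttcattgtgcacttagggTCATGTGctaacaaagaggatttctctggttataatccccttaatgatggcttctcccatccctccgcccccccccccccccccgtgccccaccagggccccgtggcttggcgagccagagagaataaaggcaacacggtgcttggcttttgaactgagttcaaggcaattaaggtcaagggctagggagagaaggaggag
Trpm1: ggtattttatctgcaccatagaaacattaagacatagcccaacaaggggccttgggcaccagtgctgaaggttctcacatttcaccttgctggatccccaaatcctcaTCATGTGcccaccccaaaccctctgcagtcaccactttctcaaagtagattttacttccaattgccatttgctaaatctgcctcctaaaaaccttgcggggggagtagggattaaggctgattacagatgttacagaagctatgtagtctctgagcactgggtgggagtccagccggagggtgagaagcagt
The match started 22 bases before the start site in Tyr, 47 in Tyrp1 and 142 in Trpm1. Dct had 2 matches, at 232 bases before its start on the opposite strand and at 151 bases. The shorter E-box CATGTG inside the M-box stood in 14.2% of all windows and, without the flanking base, also in Oca2 and the second Trpm1 window, which held CACGTG too (7.15% of all windows). The 3 Mitf windows and the Gpnmb window held none of these letters.

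Dct was by far the highest member in every melanoma library. It reached 16150 CPM, or 1.61% of all UMIs, in metastasis MM replicate 4, 17182 in metastasis MM replicate 5, 13228 in primary tumor MM replicate 4 and 14412 in primary tumor MM replicate 5. That put it at rank 2 or 3 among all genes in each of them. Gpnmb followed with 2491, 2443, 1618 and 1689 CPM in the same order, at ranks between 37 and 116. Dct and Gpnmb were thus clear of each other and of the remaining members, with mean levels that differed 7.40 times between the pair.

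The other melanin enzymes were lower. Tyrp1 stood at 1503 and 1269 CPM in the metastasis libraries and 662 and 705 CPM in the primary tumor libraries. Tyr, the enzyme that starts the pathway, stood at only 619, 337, 360 and 188 CPM. Its mean level was 40.5 times below that of Dct. The fibril protein Pmel had 698 and 1364 CPM in metastasis and 456 and 706 in primary tumor. Mlana had 388 and 323 CPM in metastasis against 112 and 119 in primary tumor.

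The transporters, the channel and the regulator lay among these levels or below them. Slc45a2 stood at 406, 642, 332 and 429 CPM. Trpm1 had 137 and 189 CPM in metastasis and 58.6 and 55.6 in primary tumor. Oca2 was the lowest member with 11.5, 24.1, 15.6 and 9.14 CPM, at ranks from 5195 to 8417, and it rested on 16 UMIs in metastasis MM replicate 4. Mitf, the regulator, stood at 222, 437, 405 and 298 CPM. From Tyrp1 down to Trpm1, in the order Tyrp1, Pmel, Slc45a2, Tyr, Mitf, Mlana and Trpm1, each neighbor overlapped the next across the 4 libraries, while Oca2 lay below them without overlap. The members together took 2.26% and 2.42% of all UMIs in the metastasis libraries and 1.72% and 1.86% in the primary tumor libraries.

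**Figure D1:**
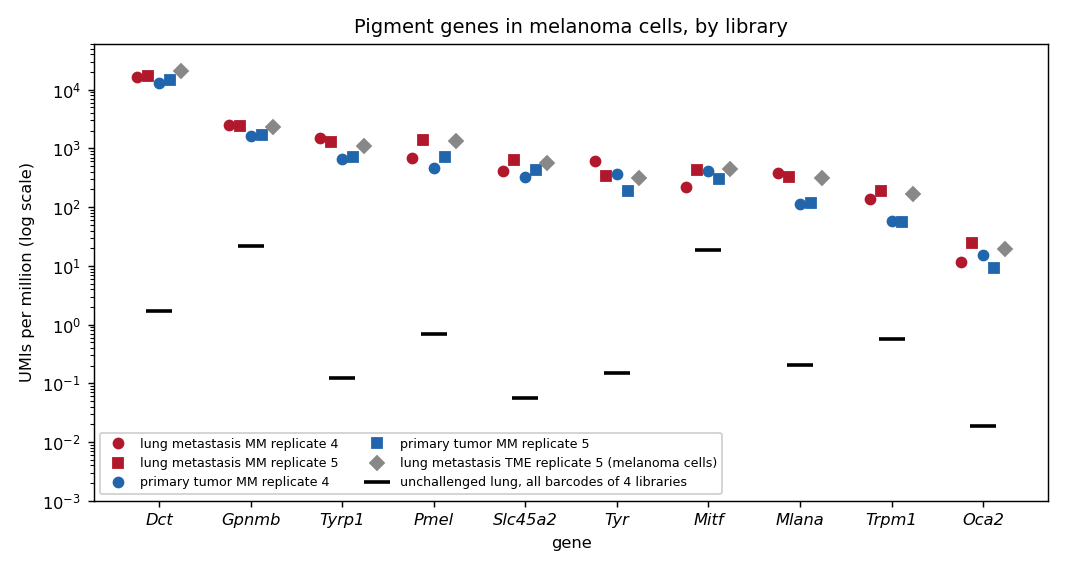
CPM (log scale) of each member in the melanoma cells of the 4 sorted libraries and of metastasis TME replicate 5, 1 point per library, with the level over all barcodes of 4 unchallenged lungs as a bar. Dct lies between 13228 and 20891 CPM in melanoma cells and at 1.69 CPM in unchallenged lung, and the lung bars of Gpnmb (22.2 CPM) and Mitf (18.9 CPM) are the highest.

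Dct UMIs were found in nearly every melanoma cell. After each cell was thinned to 1000 UMIs, with shallower cells left out, a Dct UMI was found in 95.9% of cells in metastasis MM replicate 4 (exact Clopper-Pearson 95% interval 92.7 to 97.9, counting error only) and in 100% in the other sorted libraries after rounding. The share for Gpnmb ran from 72.2% to 88.9%, for Tyrp1 from 40.3% to 65.4% and for Oca2 from 0.789% to 2.58%. Unthinned, Dct was found in 100% of melanoma cells in each of these libraries. In blood endothelial cells of unchallenged lung, which should lack the gene, the thinned share was 0% to 1% per library. Host cells of tumor-bearing tissue, leaving out the Col2a1 cluster and a mixed ciliated cluster described below, had far higher shares. In metastasis MM replicate 4 the thinned share was 51.7% to 71.6% over 4 host cell types, and in metastasis MM replicate 5 it was 72.7% in fibroblasts. In metastasis TME replicate 5 it was 86.6% to 99.4% over 9 host types, so that a Dct UMI alone did not set melanoma cells apart there. Levels differed more, at 512 to 1792, 7238 and 2670 to 6339 CPM of Dct in these host cells against 16150, 17182 and 20891 CPM in the melanoma cells. The median cell held 3 to 5 different members and 16.5 to 26 member UMIs per 1000. Only 2 of 266 thinned cells in metastasis MM replicate 4 and 2 of 28958 in primary tumor MM replicate 4 held no member UMI at all, and the other libraries had no such cell.

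Cells of metastasis MM replicate 4 differed more among themselves. The variance of Dct over its mean was 17.9 there and 1.21 to 4.42 in the other melanoma sets, and 7.52% of its cells had under 3 member UMIs against at most 0.198% elsewhere. Across cells of 1 library, most pairs of members were weakly related at this depth. Some pairs were more closely related in metastasis MM replicate 4, such as Tyr with Dct at a correlation of 0.545. The correlation of Tyrp1 with Pmel ran from 0.0082 to 0.30 over 5 libraries and that of Dct with Gpnmb from 0.033 to 0.57, while Mitf with Pmel ran from -0.072 to 0.0094. These are descriptions of sparse counts from shared libraries.

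Cells of the melanoma clusters were also present among the red-sorted cells. Metastasis TME replicate 5 held 2033 of them, 39.4% of its barcodes, and the other TME libraries held 4 to 15, or 0.210% to 2.31%. Of the 2033 cells, 1859 formed a subcluster apart from the sorted melanoma cells, led by Scgb1a1, Sftpc, Retnla, Wfdc2, Sftpa1, Cbr2, Mgp and Ctla2a, among them secretory genes of airway and alveolar cells, and it was given no name of its own. Scgb1a1 was at 1657 CPM and Sftpc at 160 CPM in it, against 24222 and 14012 CPM in the host cells of that library. Sorted melanoma cells of the same site and replicate number had 1.59 and 0.920 CPM. Cited1 was at 1168 CPM in it and 982 in the sorted cells, Syt4 at 2049 and 2305 and Sox10 at 232 and 211, but clusters were named from these markers, so their levels are no independent evidence of what the cells are. The source of the airway and alveolar transcripts was not tested. Over all 2033 cells, Dct was at 20891 CPM, Gpnmb at 2332, Pmel at 1326, Tyrp1 at 1086, Mitf at 442, Mlana at 314 and Trpm1 at 165. The sorted library of the same site and replicate number had 17182 CPM of Dct and 1269 of Tyrp1. No difference is read from this single pair, since most of the cells lie in different subclusters and the median depth was 9258 UMIs in the TME library and 4004 in the sorted one. The 2 libraries shared 14 cell barcodes. In the TME libraries with 4 to 15 melanoma cells, Dct ran from 15742 to 31754 CPM.

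The comparison of lung metastasis with primary tumor asked whether pigment genes differed between the sites. In the fit of edgeR's quasi-likelihood test on UMIs summed per library, 0 of 10 members passed an adjusted p of 0.05, and 1 of 14271 genes tested did (0.00701%), which was Ank3, lower in metastasis. Without adjustment 407 genes had a p under 0.05. DESeq2 called 2 members, Mlana and Trpm1, where 0.0841% of genes were called higher. All 10 members passed the filter on low counts in this comparison. Their median log2 difference, metastasis minus primary tumor, was 0.66, beside -0.043 over all genes tested, and 9 of 10 were positive.

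Mlana differed most. Its metastasis libraries lay at 388 and 323 CPM and its primary tumor libraries at 112 and 119, with no overlap. The log2 difference was 1.62 (SE 0.39, edgeR adjusted p = 0.38). Trpm1 came next at 1.49 (SE 0.36, edgeR adjusted p = 0.40), and Tyrp1 at 1.02 (SE 0.45, edgeR adjusted p = 1.00). Dct differed by 0.26 on the log2 scale with an SE of 0.61, and its direction turned to -0.20 with all barcodes of the sorted libraries and to -0.014 with the members kept for clustering. Mitf differed by -0.15 with an SE of 0.44. For 5 of 10 members, Mlana, Trpm1, Tyrp1, Gpnmb and Dct, both metastasis libraries were above both primary tumor libraries in CPM, which was the case for 11.3% of all genes tested. Cells of a Col2a1 cluster, described below, are left out of these CPM. In metastasis MM replicate 4 they were 123 cells with 4471 CPM of Dct, beside 274 melanoma cells. Keeping members for clustering named most such cells melanoma, and Dct then had no clear direction (-0.014).

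Replicate numbers here mark a shared entry in the run column, which the metadata do not explain further, and for replicate 5 a shared mouse. By the numbers in the cell names, the pair from 1 mouse also shares a number and the pair from 2 mice does not. Deviations of same-numbered libraries from their group means correlated at 0.42 over 14271 genes. With 2 libraries per site, both pairs give the same value, so this is 1 comparison. With 2 libraries per site, a replicate block leaves little from which to measure spread. The p-values of such a paired fit therefore rest largely on spread estimated over all genes. With the replicate block, Mlana (log2 difference 1.61, edgeR adjusted p = 0.00241) and Trpm1 (1.49, edgeR adjusted p = 0.00222) passed the threshold, and the paired fit called 116 genes in all. It called 2 of 10 members higher where 0.329% of genes were called higher. Within the runs, Mlana was 3.45 times higher in metastasis in replicate 4 and 2.72 times in replicate 5. Trpm1 was 2.34 and 3.39 times higher. Tyrp1 was 2.27 and 1.80 times higher, Tyr 1.72 and 1.79 times, and Dct 1.22 and 1.19 times. Mitf went both ways, at 0.548 times in replicate 4 and 1.47 times in replicate 5, and so did Oca2, at 0.739 and 2.64 times.

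**Figure D2:**
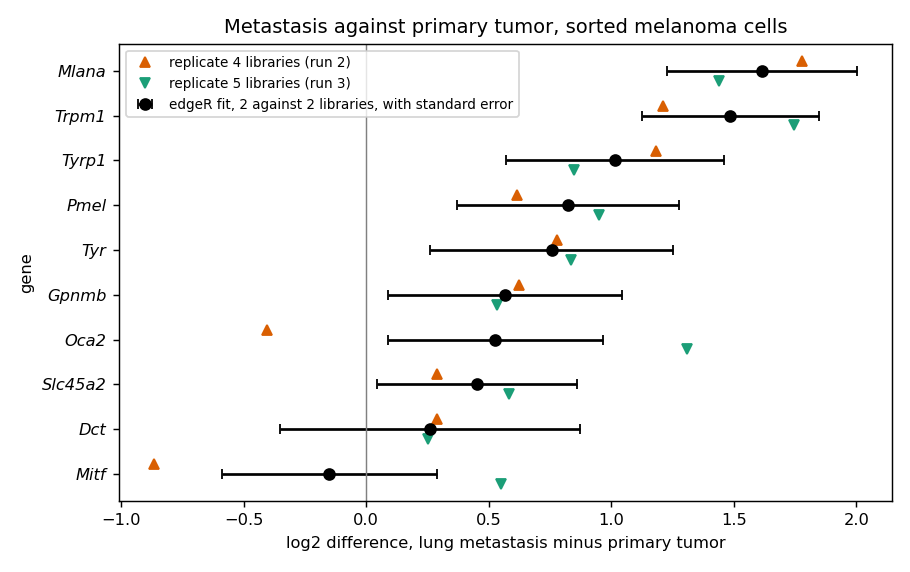
Log2 difference of each member, lung metastasis minus primary tumor, in sorted melanoma cells. Black points with bars are the edgeR estimate and its standard error from 2 against 2 libraries, and triangles are the single replicate 4 and replicate 5 pairs. Mlana (1.62) and Trpm1 (1.49) are farthest from 0, and the pairs lie on both sides of 0 for Mitf and Oca2.

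The rest of the pigment pathway was read from lists of its regulators, channels and traffic genes. None of the tested genes on these lists was called in the edgeR fit. Of 20 regulators, 19 were tested, with a median log2 difference of -0.10. In both metastasis libraries without overlap, 4 of the 19 were higher and 0 lower, where 11.3% of all genes were higher and 13.6% lower. Sox10, which activates Mitf, was at 110 and 211 CPM in metastasis and 179 and 256 in primary tumor (-0.44), Pax3, another activator, differed by -0.19 and Zeb2 by -0.13. The 11 melanosome channels and transporters had a median of 0.37, with 0.39 for Atp6ap2, an accessory subunit of the proton pump, 0.37 for Slc24a5, a cation exchanger of melanosomes, and 0.14 for Slc3a2. Without overlap, 6 of the 11 were higher, as were 11.3% of all genes. With the replicate block, which called 0.329% of all genes higher, 1 of the 11 was called higher, Slc24a4, named after its values were seen, at 12.9 and 10.7 CPM in metastasis against 1.74 and 1.62. DESeq2 called it too (DESeq2 adjusted p = 0.00258).

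The list of 27 traffic genes had a median of 0.21 and ran from -0.77 for Melk to 1.39 for Sytl2. Of these, 8 were higher in both metastasis libraries without overlap and 1, Melk, was lower, where 11.3% of all genes were higher and 13.6% lower in this way. Melk is a kinase of dividing cells and Cited1 a transcriptional co-regulator, so neither is a traffic gene by its known role. Myo5a, the motor that carries melanosomes along actin, stood at 381 and 216 CPM in metastasis and 136 and 170 in primary tumor (0.98). Cd63, which sorts Pmel, differed by -0.13 and Cited1 by 0.094. With the replicate block 2 of the 27 were called higher, Sytl2 and Rab32, also named after their values were seen, and DESeq2 called neither. Of 11 other MITF targets 9 were tested, at a median of 0.74. Hif1a differed by 0.74, Lgals3 by 0.62 and Rab7 by 0.41, and 7 of the 9 were higher without overlap, against the same 11.3% of all genes. The paired fit called Met and Atp6v0d2 higher, against 0.329% of all genes, and DESeq2 called neither. Atp6v0d2 overlapped between the sites, at 53.9 and 11.1 CPM in metastasis and 13.0 and 0.776 in primary tumor. Of 12 genes linked to low pigment 11 were tested, at a median of -0.24. Without overlap, 1 of the 11 was higher and 4 were lower, where 11.3% of all genes were higher and 13.6% lower. Jun differed by -0.60 and Tead1 by -0.24, and Nes by 1.29, with 206 CPM in metastasis MM replicate 4 and 25.5 to 52.9 in the others. The paired fit called Cd36 higher and Aqp1 lower among these, where it called 0.329% of all genes higher and 0.483% lower. Cd36 was carried by metastasis MM replicate 4, at 21.6 CPM against 1.10, 0.580 and 0.0675 in the others. Aqp1 was at 4.31 and 7.49 CPM in metastasis and 16.9 and 25.2 in primary tumor, and DESeq2 called neither gene.

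Cycling melanoma cells were compared with the other melanoma cells of the same library, and no member passed the test. A cell was counted as cycling with at least 2 UMIs of 10 cycle genes after thinning, which took 10.1% to 30.2% of melanoma cells in 5 libraries. For 7 of 10 members cycling cells were below the other cells in 5 of 5 libraries. The share of all genes below in this way was not computed, so the count is not read as particular to the members. The mean log2 difference was -0.43 ± 0.24 (SD) for Trpm1, -0.36 ± 0.41 for Dct, -0.35 ± 0.54 for Gpnmb, -0.33 ± 0.17 for Tyr, -0.28 ± 0.47 for Tyrp1, -0.25 ± 0.24 for Oca2 and -0.24 ± 0.23 for Slc45a2. Each had p = 0.0625 in an exact two-sided sign-flip permutation test, the smallest that 5 libraries allow, and 0.0893 after Benjamini-Hochberg adjustment over 10 members. By the mouse names kept, the 5 libraries came from 3 mice, with 3 libraries from 1 mouse, so they are not 5 independent units. Metastasis TME replicate 5, among these, was also deposited under another mouse. Pmel (-0.44 ± 0.54) and Mlana (-0.22 ± 0.24) were lower in 4 of 5 libraries. Mitf differed by -0.018 ± 0.22 and was lower in 2 of 5. The 47 cycling cells of metastasis MM replicate 4 gave the widest differences for 8 members, with -1.06 for Dct, and primary tumor MM replicate 4 gave -0.023 for Dct. Without metastasis MM replicate 4 the mean difference was -0.069 for Tyrp1, -0.11 for Gpnmb, -0.12 for Mlana, -0.14 for Slc45a2, -0.15 for Oca2, -0.19 for Dct and -0.21 for Pmel. Tyr (-0.28) and Trpm1 (-0.41) moved less.

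A cluster of 2117 cells led by Col2a1, Ccn2 and Wnt4 also carried Dct, at levels below those of the melanoma cells. It was left unnamed by the marker lists, although Sox10 in it was at 230 to 334 CPM in libraries with at least 20 of its cells. In its 10 libraries with at least 10 cells, Dct ran from 4471 to 17303 CPM with a median of 10312. Compared with melanoma cells of the same library, 8 members were lower in 5 of 5 libraries. The share of all genes lower in this way was not computed here either. The median log2 difference was -1.29 for Pmel, -1.20 for Mlana, -1.11 for Trpm1, -1.07 for Tyrp1, -0.80 for Dct and -0.56 for Gpnmb. Mitf was higher there in 4 of 5 libraries, at a median of 0.24, and Oca2 was lower in 3 of 5. When the members were kept among the clustering genes, 2111 of these 2117 cells were named melanoma, while 1975 of them stayed together in a cluster led by Col2a1 of its own. This is given as a description because the clusters rest on the same cells.

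**Figure D3:**
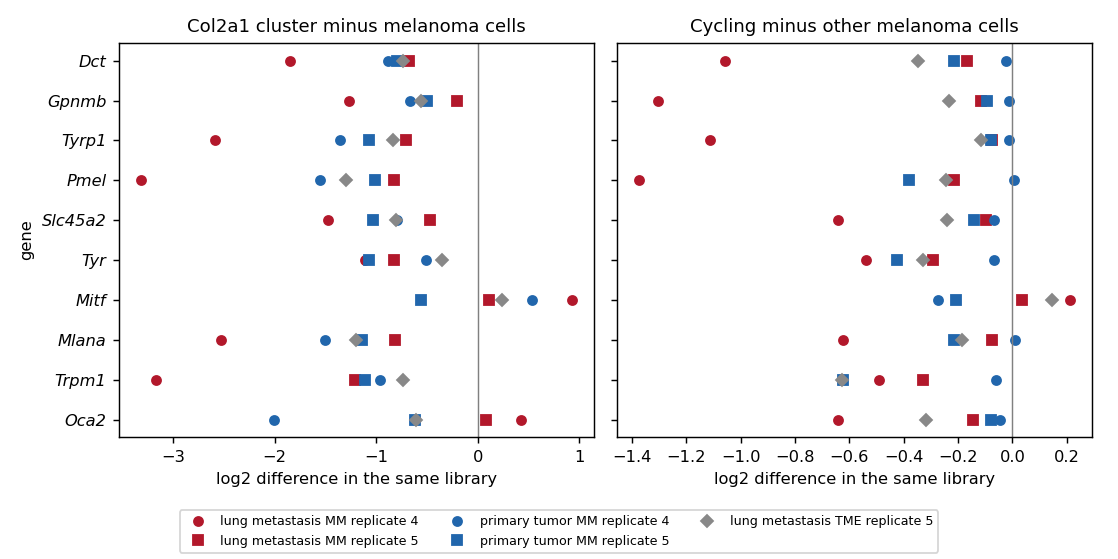
Log2 difference of each member within a library, 1 point per library, for the Col2a1 cluster minus melanoma cells (left) and for cycling minus other melanoma cells (right). Points lie left of 0 for most members, Mitf lies on both sides, and metastasis MM replicate 4 (red circles) holds most of the farthest points.

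Within the melanoma cells, 9 subclusters ran from 101 to 511 CPM in Mitf and from 12992 to 21220 CPM in Dct. A subcluster of 506 cells led by Nes had Mitf at 101 CPM, beside 404 in a deep subcluster of 4048 cells led by Kcnj13, while Dct was at 15273 and 17508 CPM in these. A subcluster of 992 cells led by Mlana itself had Mlana at 405 CPM and Dct at 19101. The subcluster led by cycle genes had Dct at 12992 CPM and Trpm1 at 81.6. Most subclusters came largely from 1 library, so they may be libraries and not types. The 9 members among the variable genes were removed before the subclusters were made.

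The genes whose level was most like that of the summed members over 8 points, each a melanoma cluster of a sorted library, were Letm1 (Pearson r 0.98), Naglu, Atp6v0a1, Dgat1, Rab4a, Grn, Psap, Atp6ap1, Nucb1 and Gask1b (0.90). Naglu, Grn and Psap encode lysosomal proteins and Atp6v0a1 and Atp6ap1 subunits of the proton pump of acidic organelles. The others, with Letm1 at the top, are not placed in this group. The share of such genes among all genes was not computed, so no common theme is read from the list. Dct makes up most of the summed members in each sorted library, so the profile is largely that of Dct. The 8 points come from 4 libraries, so they are not independent.

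Host cells of tumor-bearing tissue carried Dct at levels below the melanoma cells of their library and above unchallenged lung. The Col2a1 cluster and a cluster of 101 cells with ciliated markers are left out of this and of the ranges that follow. The latter had 11215 CPM in metastasis TME replicate 5 and 19168 in metastasis MM replicate 5, above the melanoma cells of that library. Among the types kept, the gap to melanoma cells was smallest in fibroblasts of metastasis MM replicate 5, at 7238 against 17182 CPM. Over host cell types with at least 20 cells, Dct ran from 172 to 6339 CPM in metastasis TME libraries and from 147 to 3787 in primary tumor TME libraries. In unchallenged lung it ran from 0 to 5.96 CPM, with no overlap. Within a library the types ranged over 172 to 602 CPM in metastasis TME replicate 1-3, 297 to 710 in replicate 4, 750 to 1651 in replicate 6 and 2670 to 6339 in replicate 5. In the last of these, 39.4% of barcodes fell in the melanoma clusters. Primary tumor TME libraries ran from 258 to 624 CPM in replicate 1-3, 147 to 700 in replicate 4 and 265 to 780 in replicate 5. Primary tumor TME replicate 6 had 1022 CPM in blood endothelial cells and 3787 in fibroblasts, with 0.210% of its barcodes called melanoma. The part of free RNA and of doublets in these levels was not tested.

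**Figure D4:**
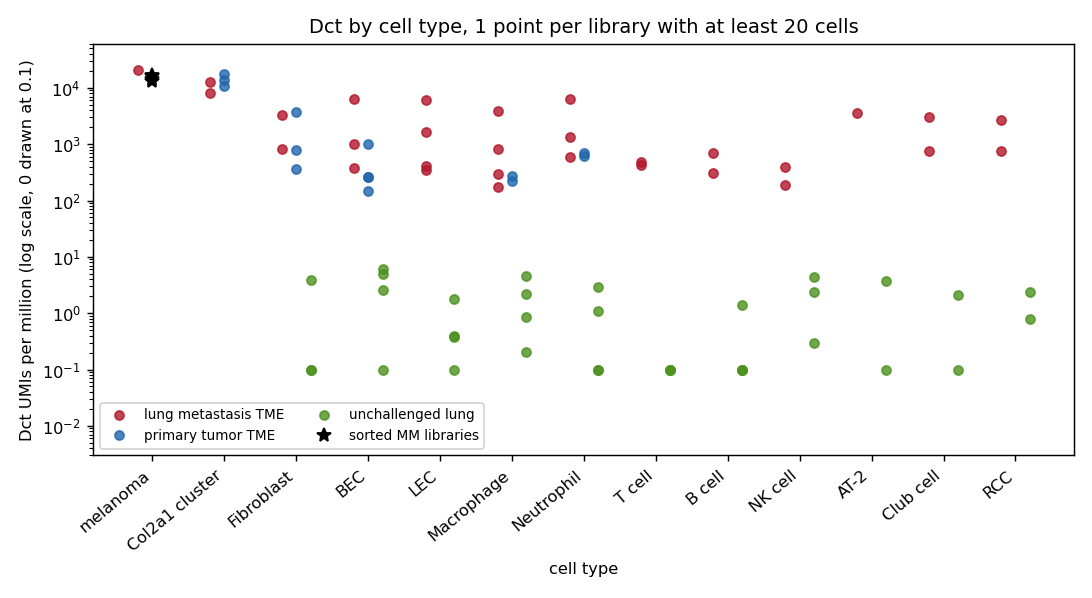
Dct CPM (log scale, zeros drawn at 0.1) by cell type, 1 point per library with at least 20 cells. BEC are blood endothelial cells, LEC the study's lymphatic endothelial cells, AT-2 alveolar type II cells and RCC respiratory ciliated cells. Points of metastasis TME and primary tumor TME lie between 147 and 6339 CPM in host types, and those of unchallenged lung at or below 5.96 CPM.

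Blood endothelial cells gave the clearest view, since they are not known to make pigment. Dct was at 380, 6243 and 997 CPM in metastasis TME replicates 4, 5 and 6 and at 258, 147, 265 and 1022 CPM in primary tumor TME replicates 1-3, 4, 5 and 6. Unchallenged lung had 4.86, 0, 2.62 and 5.96 CPM, from 2, 0, 4 and 2 UMIs. After thinning, 12.6% to 69.1% of blood endothelial cells of primary tumors and 31.8% to 94.1% of those of the 3 metastasis libraries had a Dct UMI. The log2 difference from unchallenged lung was 9.82 (SE 1.13, edgeR adjusted p = 7.92e-05) for metastasis and 7.16 (SE 1.07, edgeR adjusted p = 0.000138) for primary tumor. These contrasts share the 4 lung libraries. Dct passed the low-count filter through the tumor libraries alone, and with so few lung UMIs the size of these differences depends on the fit, so the levels carry the comparison.

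Other members followed where their counts allowed it. Of 10 members 6 passed the filter on low counts, mostly through the tumor libraries, so that the numbers called are no support of their own. In metastasis these were 6, where 5.14% of genes were called higher, and in primary tumor 4, where 9.95% were. Gpnmb in blood endothelial cells was at 10.3, 746 and 150 CPM in metastasis TME, at 46.0, 42.1, 40.05 and 101 CPM in primary tumor TME and at 4.86, 0, 0 and 2.98 CPM in lung. Its log2 difference was 8.12 (edgeR adjusted p = 0.00030) for metastasis and 5.57 (edgeR adjusted p = 0.00208) for primary tumor. The 10.3 CPM is 1 UMI from 22 cells, and the lungs gave 3 Gpnmb UMIs in all, so these sizes depend on the fit too. Tyrp1 and Tyr had no UMI in lung blood endothelial cells, whereas primary tumor TME gave 7, 7, 12 and 38 Tyrp1 UMIs and 2, 4, 2 and 19 Tyr UMIs. Mitf was called in metastasis (3.96, edgeR adjusted p = 0.00542; DESeq2 adjusted p = 0.0551) and not in primary tumor (1.51, edgeR adjusted p = 0.26). Pmel was called in metastasis and lost its call without metastasis TME replicate 5 (edgeR adjusted p = 0.0579), and in primary tumor it missed the threshold (edgeR adjusted p = 0.0567). Without metastasis TME replicate 5 the number of all genes called fell from 711 to 137.

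Macrophages of primary tumor also held more Dct than those of unchallenged lung, while neither Gpnmb nor Mitf passed the test. Dct was at 273 and 220 CPM in primary tumor TME replicates 1-3 and 4 and at 4.59, 0.207, 0.861 and 2.17 CPM in unchallenged lung (log2 difference 7.30, SE 1.15, edgeR adjusted p = 0.00382). Gpnmb was at 67.7 and 43.4 CPM in primary tumor and at 60.5, 2.89, 11.97 and 50.8 CPM in lung, so the groups overlapped (0.97, SE 1.02, edgeR adjusted p = 0.58). Mitf was at 36.8 and 43.3 CPM against 36.3, 15.1, 15.2 and 28.5 CPM (0.90, SE 0.39, edgeR adjusted p = 0.16).

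Of 10 members 8 passed the filter in macrophages and 6 were called higher in primary tumor, again mostly filtered in through the tumor libraries, where 4.97% of genes were called higher. Leaving out a primary tumor library leaves 1 in that group, which is then assumed to vary like the lung and metastasis libraries of the fit. Dct and Tyr kept their call without any 1 lung library. Both were filtered in mostly through the tumor libraries, and Tyr had 6 UMIs in all lung macrophages, so this is no support of its own. Pmel lost its call without each of the 6 libraries in turn (edgeR adjusted p from 0.0560 to 0.212), and Mlana without each but unchallenged lung replicate 1 (0.0565 to 0.177). Tyrp1 lost it without primary tumor TME replicate 1-3 (0.0842), primary tumor TME replicate 4 (0.0853) or unchallenged lung replicate 5 (0.0602), and Slc45a2 without primary tumor TME replicate 1-3 (0.0680) or unchallenged lung replicate 6 (0.0519). The groups differ in the clusters that make up their macrophages. A C1q-rich cluster held 84.0% and 95.5% of them in the 2 primary tumor libraries and 3.26% to 12.8% in lung. Alveolar macrophages were 0% in primary tumor and 40.1%, 5.86%, 14.2% and 63.0% in lung replicates 1, 4, 5 and 6, in the order in which their Gpnmb levels are given, and Ly6c2 and Cd300e clusters held most of the rest. In the C1q cluster alone, a choice made after the data were seen, Dct differed by 6.37 (edgeR adjusted p = 0.00106), Gpnmb by 2.65 (0.0559) and Mitf by 0.24 (0.68).

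Ratios to Dct set a member beside the most abundant member in melanoma cells. For a gene that the host cell makes as well, such a ratio becomes smaller as more Dct is present, so libraries are compared only within themselves. Dct also differed between macrophages and blood endothelial cells of a library, so this limit remains within a library. In melanoma cells there were 11.2 to 15.4 Gpnmb UMIs and 1.37 to 3.06 Mitf UMIs per 100 Dct UMIs. Gpnmb per 100 Dct UMIs in macrophages was 64.5, 7.80, 16.9 and 19.8 in metastasis TME replicates 1-3, 4, 5 and 6, and 24.8 and 19.7 in primary tumor TME replicates 1-3 and 4. In blood endothelial cells of the same libraries it was 22.2, 2.70, 11.9, 15.1, 17.9 and 28.7. Macrophages were higher in 5 of 6 libraries, by a mean log2 difference of 0.51 (p = 0.156, exact two-sided sign-flip permutation over 6 libraries), and lower in primary tumor TME replicate 4 (-0.56). In metastasis TME replicates 1-3 and 4, with the widest differences (1.29 and 1.02), blood endothelial cells gave 2 and 1 Gpnmb UMIs from 10 and 22 cells. The other 4 libraries, a choice made after the data were seen, gave a mean of 0.19 (p = 0.625, exact two-sided sign-flip permutation, smallest possible p 0.125). Some of the pooled libraries share mice.

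Mitf stood apart more clearly, as a pattern picked after its values were seen and therefore given with no test. Per 100 Dct UMIs it had 23.3, 9.93, 2.26, 7.41, 13.5 and 19.7 UMIs in macrophages and 0, 0, 2.03, 2.04, 3.57 and 5.22 in blood endothelial cells, in the same library order. The 2 zeros rest on 9 and 37 Dct UMIs. The gap was smallest in metastasis TME replicate 5, where Dct in host cells was highest.

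**Figure D5:**
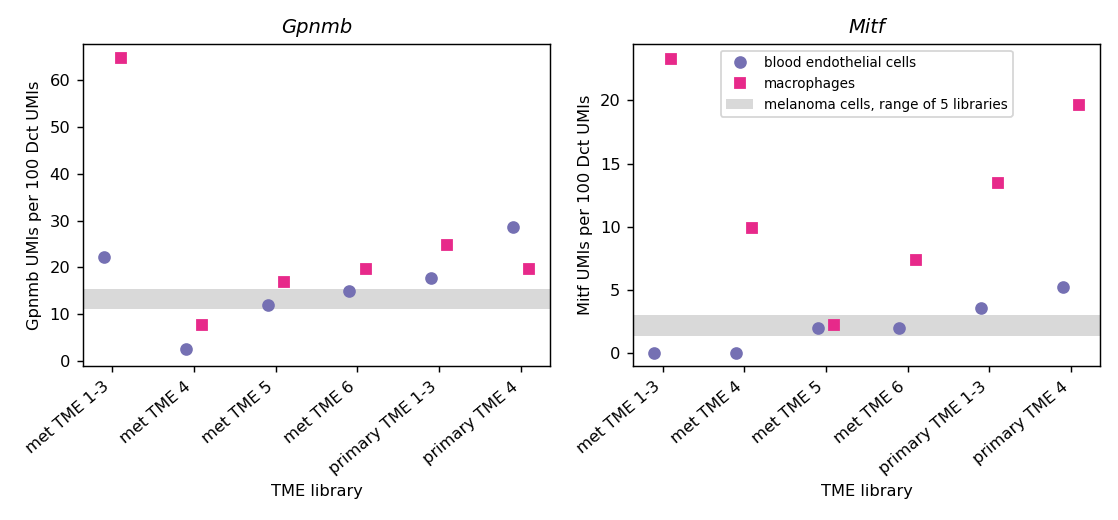
Gpnmb (left) and Mitf (right) UMIs per 100 Dct UMIs in macrophages and blood endothelial cells of 6 TME libraries, with the range of 5 melanoma cell sets as a gray band. Mitf in macrophages lies above blood endothelial cells in 6 of 6 libraries, from 2.26 to 23.3, and Gpnmb in 5 of 6.

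In unchallenged lung, which holds no melanoma, Gpnmb and Mitf had many UMIs and the other members few. Over 37386 cells and 106943597 UMIs, Gpnmb had 2370 UMIs (22.2 CPM) and Mitf 2022 (18.9 CPM). Gpnmb stood at 30.7, 3.05, 9.61 and 34.7 CPM in replicates 1, 4, 5 and 6 and Mitf at 23.5, 7.19, 14.5 and 25.0 CPM. Replicate 6 gave 1858 of the Gpnmb UMIs, and without it the pooled level was 9.58 CPM for Gpnmb and 12.8 CPM for Mitf.

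Alveolar macrophages had 127, 45.5, 72.2 and 79.5 CPM of Gpnmb and 61.7, 35.8, 38.5 and 35.5 CPM of Mitf in the 4 lungs. Pooled blood endothelial cells had 1.06 and 4.25 CPM. Cell types came in unequal parts from the lungs, so pooled levels mix type and library. Without replicate 6, Gpnmb was at 90.6 CPM in alveolar macrophages, 35.6 in fibroblasts and 31.7 in an unnamed cluster led by Fibin, Rprml and Car4. In other types it was carried by replicate 6. It went from 17.4 to 0.640 CPM without that library in AT-2 cells, from 21.9 to 1.86 in ciliated cells, from 15.6 to 0 in club cells and from 14.1 to 0.402 in B cells. Mitf without it was at 24.3 CPM in AT-2 cells, 23.5 in ciliated cells, 20.8 in neutrophils and 19.6 in fibroblasts, and went from 12.3 to 1.21 in B cells. The part of free RNA in these levels was not tested.

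Dct had 181 UMIs (1.69 CPM) in unchallenged lung, 135 of them in replicate 6, Pmel 75, Trpm1 60, Mlana 22, Tyr 16, Tyrp1 13, Slc45a2 6 and Oca2 2. In unchallenged lung replicate 6, 15 of the 109 barcodes with a Dct UMI (13.8%) had the same cell barcode as a cell of a sorted melanoma library, compared with 1.36% of all its barcodes, and 1 barcode held 8 Dct UMIs. In the other lungs, 0 of 18 barcodes with a Dct UMI in replicate 1, 1 of 4 in replicate 4 and 2 of 20 in replicate 5 were shared in this way. The source of these UMIs was not tested.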

How the data were processed

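Single cells of 5 groups (lung metastasis MM and TME, primary tumor MM and TME, unchallenged lung) were measured by 10x 3′ sequencing. Per the labels and the study's methods, the authors aligned reads with Cell Ranger 6.1.1 to GRCm38 (mm10), filtered cells in Seurat 3.2.2 by quantiles of ribosomal and mitochondrial share and of detected genes, and deposited raw UMI counts per gene and cell. The deposited normalised matrix was not used. The study's methods do not state how doublets were treated, and no doublet caller was run.

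Identical libraries were counted once and names under 1 sample title were joined, giving 16 libraries with 1777036 to 60339415 UMIs. Depth limits precision, and intervals cover counting error only. Seurat 5.3.0 clustered the cells on 2000 variable genes (17 principal components, 20 neighbors, resolution 0.5) with the members removed, and clusters were named by marker lists, of which 1 gene is not reported here. UMIs were summed per library and cell type (at least 20 cells) and tested across all genes with edgeR 4.0.16 (filterByExpr, TMM, quasi-likelihood test, Benjamini-Hochberg, threshold 0.05). A melanoma fit used the 4 sorted libraries. Each host fit used the TME and lung libraries of 1 cell type. Alternatives were DESeq2 1.42.0, RLE scaling, no low-count filter, leaving out each library, the replicate block, and other cell sets. The edgeR fits were also run on simulated counts, and the outcome is not reported here. Ratios to Dct had 0.5 added to either count and cycling ratios 1 CPM. Thinned shares used 1000 UMIs per cell.

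Every member is named. From each pathway list up to 6 called genes are named, filled to 3 by mean CPM, and the 10 genes most like the summed members. Members and lists were chosen with earlier results of these data known. Replicates may share a mouse or a run, so p-values measure the spread between these libraries. Primary tumors were subcutaneous by the study's methods, although the labels give lung as tissue.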

Additional observations from a re-analysis of the deposited data

Results flagged for a closer look

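Values were looked for that lay far from the other libraries of their group by Dixon's criterion, in groups where a library held more than 3 UMIs of the gene. Of 66 groups 19 had such a value, and chance gives about 1 in 20.

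Metastasis TME replicate 5, with 39.4% of its barcodes in the melanoma clusters, accounts for 11 of them. Over all its barcodes it had 969 CPM of Pmel, 819 of Tyrp1, 431 of Slc45a2, 234 of Mlana, 123 of Trpm1 and 14.9 of Oca2. In its macrophages, 79 cells, it had 300.3 CPM of Tyrp1, 232 of Pmel, 137 of Slc45a2, 55.5 of Mlana and 35.9 of Trpm1. Blood endothelial cells of primary tumor TME replicate 6 had 1022 CPM of Dct, 101 of Gpnmb, 21.8 of Mitf and 8.39 of Mlana, above the other primary tumor libraries. Macrophages of unchallenged lung replicate 6 had 0.296 CPM of Tyr, from 6 UMIs, where the other lungs had 0. In metastasis MM replicate 4 the log2 difference of cycling from other melanoma cells was -1.37 for Pmel, -1.31 for Gpnmb and -1.11 for Tyrp1, farther from 0 than in the other libraries.

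Clusters outside the named comparisons carried Dct as well. The Col2a1 cluster ran from 4471 CPM in metastasis MM replicate 4 to 17303 in primary tumor TME replicate 4. A cluster of 101 cells with ciliated markers had 11215 CPM in metastasis TME replicate 5 and 19168 in metastasis MM replicate 5.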

How the results depend on the processing

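In the comparison of metastasis with primary tumor 1 gene was called. The number was 0 with all barcodes of the sorted libraries, with melanoma cells outside the cycling class, with cells of at least 1000 UMIs and with the members kept for clustering. It was 2 with melanoma cells of TME libraries added, 6 in the deeper melanoma cluster alone (an alternative chosen after seeing the data), 28 with DESeq2, 73 without a low-count filter and 116 with the replicate block. Leaving out each library gave 12 to 30. Members were called by DESeq2 and the block, Mlana and Trpm1 in both, and by no other setting. Dct turned to -0.20 with all barcodes and to -0.014 with members kept for clustering. Mitf ran from -0.61 to 0.28 and Oca2 from -0.066 to 1.16 when each library was left out. In cycling cells, Mitf turned to 0.015 with a class from Mki67 or Top2a, and ran from -0.076 to 0.046 when each library was left out.

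In macrophages 1135 genes were called, 644 in the C1q cluster alone (chosen after seeing the data), 1951 with DESeq2, 1891 without the filter and 131 to 1294 when each library was left out. In blood endothelial cells of primary tumor the number went from 1725 to 2618 without the filter. For metastasis it went from 711 to 1493 without the filter, and ran from 137 to 1282 when each library was left out. The causes were not tested. Same-numbered host libraries correlated from -0.16 to 0.32 in their deviations, so they were not treated as pairs. In macrophages only replicate 4 has a library of both primary tumor and lung. With the replicate block the other libraries can enter only through metastasis libraries of the same number. The values with this block, 3.69 for Gpnmb and 1.67 for Mitf, are given with no call. Of the other values for single genes, 440 kept direction and side of the threshold or moved by less than the spread of the libraries, 1 moved by more, 10 newly passed it and 19 lost it. Metastasis MM replicate 4 had 274 melanoma cells and each site 2 libraries, and their part in the number of calls was not tested.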
